A study of Papio papio with 23 samples.

Results

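The 10 genes described here encode products of cytotoxic lymphocytes: the granzymes GZMA, GZMB, GZMH, GZMK and GZMM, the pore-forming proteins PRF1 (perforin) and GNLY (granulysin), and NKG7, FGFBP2 and CTSW. They were taken by gene name from the probes of a human Agilent array, which gave 11 probes (2 for GNLY) among 50599, and all 10 genes were among the 21130 tested of 36337 gene names. The array was hybridised with whole-blood RNA of male adult Papio papio baboons (mean age 8.1 ± 3.3 years). The H0 group was 5 healthy baboons without exposure, sampled before irradiation. The other groups were irradiated with gamma rays of a 60Co source over the total or part of the body, at an equivalent whole-body dose of 2.5 or 5 Gy that the labels give for the study and not for each animal. They were sorted by the haematological acute radiation syndrome (HARS), in which blood cells are lost, that they later showed: 4 baboons of category H1-2 and 5 of category H2-3, each sampled on day 1 and again on day 2. The study asked which transcripts in blood mark the later HARS category. The sources used here do not say whether the H0 baboons were the irradiated animals at an earlier time.

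Cytotoxic T cells and natural killer (NK) cells store these proteins in secretory granules and release them at the contact with a target cell. Perforin opens pores in the target membrane, granzymes are serine proteases that enter through them and cleave substrates that start cell death, and granulysin lyses the membranes of microbes and infected cells. In blood, most of this RNA comes from NK cells and effector CD8+ T cells, whereas GZMK is typical of memory T cells, and plasmacytoid dendritic cells can also make GZMB.

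Each gene was read by a probe of 60 bases designed on the human genome, and the probe sequences show which human stretch each level rests on. Those of 5 genes are given 5′ to 3′ as the files hold them. GZMK, FGFBP2 and CTSW are shown because they had the largest fitted differences from H0 in H2-3 on day 1. For FGFBP2 and CTSW these rest in part on signal at background, and with the floor given below CTSW fell less than PRF1 and GZMH. GZMM and GNLY are shown because, among the genes measured on all arrays, they followed the other members least. All letters are capitals because the whole probe hybridises.
GZMK: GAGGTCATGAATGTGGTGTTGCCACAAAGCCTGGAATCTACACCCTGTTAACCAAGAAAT
GZMM: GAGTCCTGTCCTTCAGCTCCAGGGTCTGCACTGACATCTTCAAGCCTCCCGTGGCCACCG
GNLY: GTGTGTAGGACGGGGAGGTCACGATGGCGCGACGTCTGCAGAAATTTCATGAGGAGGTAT
FGFBP2: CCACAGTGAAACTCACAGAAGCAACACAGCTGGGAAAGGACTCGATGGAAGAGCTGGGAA
CTSW: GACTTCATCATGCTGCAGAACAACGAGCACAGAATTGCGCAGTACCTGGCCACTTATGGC
On build hg19 the files place the GZMK probe at chr5:54329648-54329707 on the plus strand and the GZMM probe at chr19:549679-549738 on the plus strand. The GNLY probe lies at chr2:85924656-85924715 on the plus strand and the FGFBP2 probe at chr4:15964233-15964292 on the minus strand. The CTSW probe spans chr11:65650345-65650568 on the plus strand, 224 genomic bases for 60 of transcript. The granzyme genes sit in pairs: the GZMA and GZMK probes lie 76.35 kb apart on chromosome 5, and the GZMB and GZMH probes 24.527 kb apart on chromosome 14. The longest run of bases shared within these pairs was 6 for GZMA and GZMK and 7 for GZMB and GZMH, so neither pair shared a long stretch of probe. The baboon sequence under the probes and the exon each lies in were not analysed here, and levels are compared between groups for a probe, never between probes.

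A level is the log2 signal minus the array's 75th percentile, and a difference is between group means on that scale, with its standard error (SE). On single arrays 41.4 to 51.3% of probes were well above background, lowest on the day 1 array of H2-3 baboon 1. The H0 arrays and all day 1 arrays of both categories shared a scan day except H0 baboons 1 and 2. All day 2 arrays were scanned on another day and lay on slides of their own, so day 2 and scan day cannot be told apart. In whole blood, fewer cells of a type and less RNA per cell cannot be told apart.

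One day after irradiation the cytotoxic transcripts were low in both HARS categories. Against H0, all 10 genes fell in H2-3, by limma over all genes at an adjusted p under 0.05, while 28.4% of all genes tested were called in either direction and 13.5% as lower. In H1-2, 8 of the 10 fell, against 8.59% of all genes in either direction and 4.42% as lower. GNLY (adjusted p = 0.058) and GZMA (adjusted p = 0.122) missed the threshold there. GZMA met the filter of 4 arrays mostly through H0, with 3 H0 arrays and 1 H2-3 array of day 2. Its call as lower in H2-3 therefore carries no weight of its own. Leaving GZMA out, 9 of 9 genes fell in H2-3 and 8 of 9 in H1-2. The median difference of the 10 genes was -2.59 in H2-3 and -1.81 in H1-2, where the median over all tested genes was 0.14 and 0.09. Both comparisons use the same 5 H0 arrays, so they are not independent of each other.

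**Figure D1:**
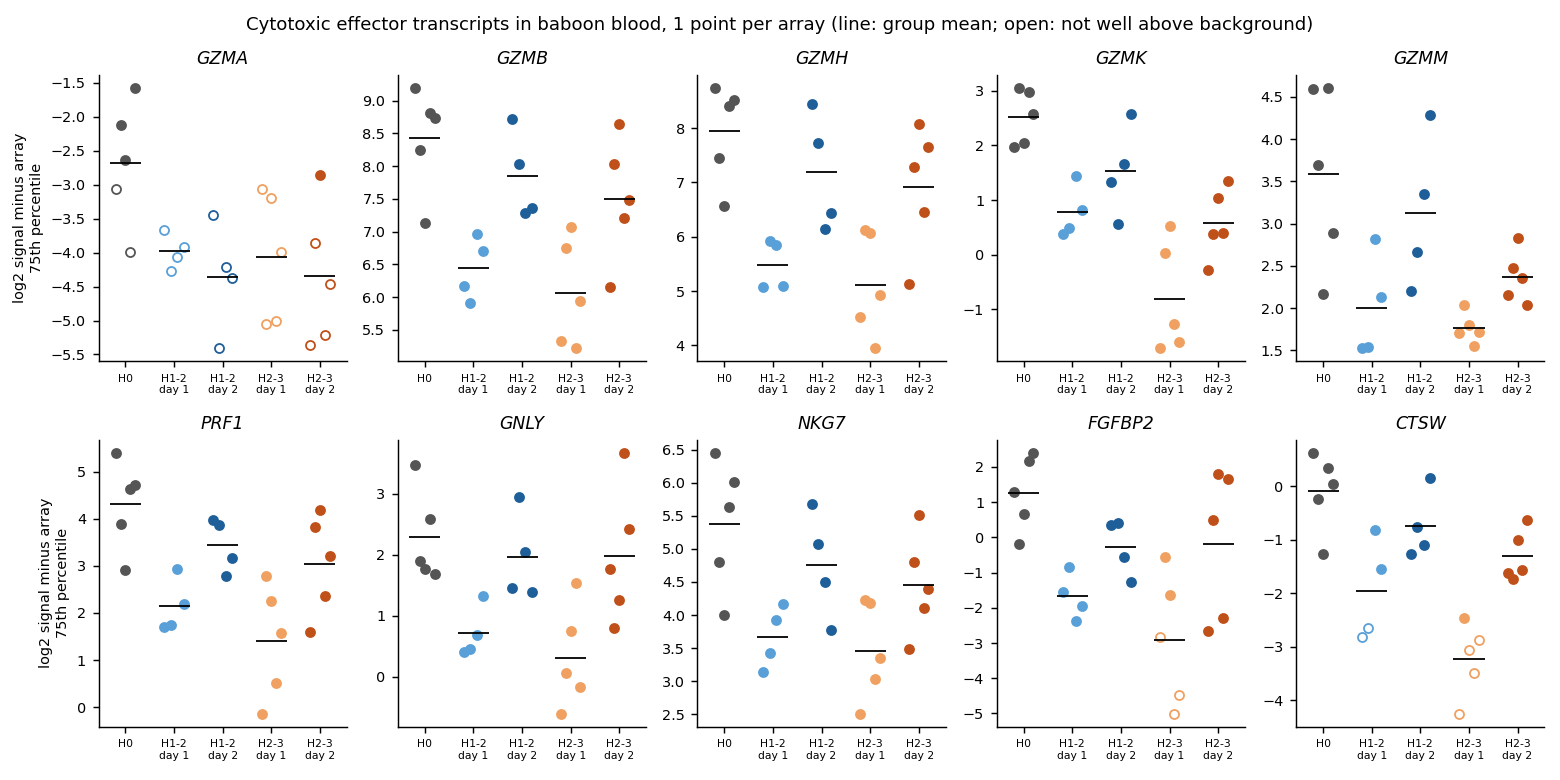
Log2 level relative to the array's 75th percentile (vertical axis, a scale of its own for each gene) in the 5 groups (horizontal axis), with a point for each array, a line at the group mean and open points for arrays where the probe was not well above background. The H0 arrays lie highest and the H2-3 day 1 arrays lowest in 9 of the 10 panels by group mean; the GZMA points are mostly open.

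GZMB is the granzyme that activates caspases and cleaves BID. Its level was 9.20, 8.25, 7.13, 8.82 and 8.74 in H0 baboons 1 to 5. On day 1 it was 6.17, 5.90, 6.97 and 6.71 in H1-2 baboons 1 to 4 and 5.33, 6.75, 7.07, 5.22 and 5.94 in H2-3 baboons 1 to 5. Every irradiated baboon was below every H0 baboon, H0 baboon 3 being the nearest. The difference from H0 was -1.99 (SE 0.49, adjusted p = 0.021) in H1-2, or 3.97-fold, and -2.37 (SE 0.46, adjusted p = 0.00078) in H2-3, or 5.16-fold.

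GZMH, the neighbour of GZMB on chromosome 14 and a chymotrypsin-like granzyme, showed the same separation. It stood at 8.74, 7.45, 6.56, 8.41 and 8.52 in H0. The day 1 levels were 5.07, 5.92, 5.86 and 5.10 in H1-2 and 4.53, 6.12, 6.07, 3.95 and 4.92 in H2-3. No day 1 array reached the lowest H0 array. The difference was -2.45 (SE 0.60, adjusted p = 0.020) in H1-2 and -2.82 (SE 0.56, adjusted p = 0.00095) in H2-3, equal to 5.47-fold and 7.06-fold lower.

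GZMK, a trypsin-like granzyme, had the largest category gap of the granzymes on day 1. Its H0 levels were 1.97, 3.06, 2.05, 2.98 and 2.58. In H1-2 on day 1 the levels were 0.38, 0.49, 1.44 and 0.81, all below H0. In H2-3 they were -1.71, 0.03, 0.52, -1.27 and -1.61, lowest in baboons 1, 4 and 5. GZMK was 3.35-fold lower than H0 in H1-2 (difference -1.75, SE 0.46, adjusted p = 0.026) and 10.1-fold lower in H2-3 (difference -3.34, SE 0.43, adjusted p = 7.1e-05).

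GZMM, which prefers methionine and leucine at the cut site, was spread widely in H0, at 4.59, 3.69, 2.16, 4.61 and 2.89. The H2-3 levels on day 1 were tight, between 1.55 and 2.04, and lay just under H0 baboon 3, whereas the H1-2 levels, between 1.53 and 2.81, overlapped H0. The difference was -1.59 (SE 0.44, adjusted p = 0.031) in H1-2 and -1.83 (SE 0.41, adjusted p = 0.0024) in H2-3. GZMA, the tryptase among the granzymes, was well above background on only 4 of 23 arrays: H0 baboons 2, 3 and 5 (-2.13, -2.63 and -1.57) and H2-3 baboon 3 on day 2 (-2.86). It was not well above background on any day 1 array. Its difference in H2-3 on day 1 (-1.39, SE 0.51, adjusted p = 0.044) is therefore set in part by signal at background. The floor for such an array was its lowest signal among probes well above background, or the signal of the probe itself where that was higher. With this floor on the irradiated arrays GZMA was 1.27-fold lower than H0 in H2-3 and 1.15-fold lower in H1-2 on day 1. H0 baboons 1 and 4 (-3.06 and -3.99) were also not well above background and kept their own signal, so these values are not strict bounds.

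PRF1, the pore former that granzymes depend on for entry, was 5.40, 3.89, 2.91, 4.63 and 4.72 in H0. On day 1 it was 1.71, 1.74, 2.94 and 2.19 in H1-2 and -0.14, 2.78, 2.24, 0.51 and 1.58 in H2-3. H2-3 baboons 1 and 4 were the lowest arrays of all, and H1-2 baboon 3 was level with H0 baboon 3. PRF1 was 4.50-fold lower than H0 in H1-2 (difference -2.17, SE 0.58, adjusted p = 0.028) and 7.54-fold lower in H2-3 (difference -2.91, SE 0.55, adjusted p = 0.00064).

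GNLY, a saposin-like membrane-lysing protein, ranged from 1.69 to 3.48 in H0, from 0.42 to 1.32 in H1-2 on day 1 and from -0.60 to 1.53 in H2-3 on day 1, so neither day 1 group overlapped H0. Its differences of -1.57 (SE 0.51, adjusted p = 0.058) and -1.97 (SE 0.48, adjusted p = 0.0044) nevertheless fell on either side of the threshold. The second GNLY probe cleared the background on 3 of 23 arrays and was not tested. NKG7, a granule membrane protein needed for degranulation, ranged from 4.00 to 6.45 in H0, from 3.14 to 4.16 in H1-2 on day 1 and from 2.51 to 4.23 in H2-3 on day 1. Both ranges touched that of H0 through its baboon 3. The differences were -1.72 (SE 0.49, adjusted p = 0.035) and -1.92 (SE 0.46, adjusted p = 0.0038).

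FGFBP2, a secreted protein made by cytotoxic lymphocytes, had the largest fitted differences of the 10 genes in both categories. Its H0 levels were 1.28, -0.18, 0.67, 2.16 and 2.40. On day 1 they were -1.55, -0.83, -2.37 and -1.94 in H1-2 and -2.83, -0.56, -1.65, -5.00 and -4.47 in H2-3, where baboons 1, 4 and 5 were not well above background. No day 1 array overlapped H0, and the difference was -2.94 (SE 0.91, adjusted p = 0.048) in H1-2, or 7.67-fold. In H2-3 it was -4.17 (SE 0.86, adjusted p = 0.0012), an 18.0-fold fitted difference that is 10.8-fold when the floor replaces the arrays at background.

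CTSW, a cysteine protease (cathepsin W) of NK and CD8+ T cells, was 0.63, -0.23, -1.26, 0.36 and 0.04 in H0. On day 1 it was -2.83, -2.66, -0.82 and -1.54 in H1-2, where baboons 3 and 4 were well above background. In H2-3 it was -4.25, -2.46, -3.06, -3.48 and -2.87, where only baboon 2 was. All 5 H2-3 arrays were below H0, while H1-2 baboon 3 was not below H0 baboon 3. The difference was -1.87 (SE 0.44, adjusted p = 0.018) in H1-2 and -3.14 (SE 0.41, adjusted p = 7.1e-05) in H2-3, where the fitted 8.79-fold was 6.42-fold with the floor.

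Counted over the arrays, 5 of the 10 genes in H1-2 (GZMB, GZMH, GZMK, GNLY and FGFBP2) and 8 in H2-3 (all but GZMA and NKG7) had every day 1 array below every H0 array. Among all tested genes, 5.4% and 9.27% did so. H0 baboon 3 was the lowest H0 array for 6 of the 10 genes, and H0 baboon 1 the highest for 6. The limma count of 8 of 10 genes in H1-2 moved with single arrays, as did the share of all genes called. It was 0 without H1-2 baboon 1 (0.0189% of all genes), 1 without H1-2 baboon 2 (1.90%) or H0 baboon 1 (2.35%) and 2 without H0 baboon 5 (2.57%). It was 3 without H0 baboon 4 (3.87%), 4 without H1-2 baboon 4 (4.22%) and 9 at most. The limma count of 10 in H2-3 was 9 or 10 without any single array.

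Within the shared scan day, with H0 baboons 3 to 5 only, all 10 genes were still lower in both categories, with medians of -1.71 in H1-2 and -2.43 in H2-3. With scan day as a block, 0 of the 10 passed in H1-2 (GZMB adjusted p = 0.091, PRF1 adjusted p = 0.113) and 9 in H2-3, where 0.0189% and 20.7% of all genes did. With slide as a block the counts were 0 and 4, the 4 being GZMK, PRF1, NKG7 and CTSW, against 0.0426% and 5.26% of all genes, and the medians -3.25 and -3.75. Under the slide block the difference from H0 rests on slide 3, which alone held an H0 and an irradiated array (H0 baboon 5 and H2-3 baboon 1).

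**Figure D2:**
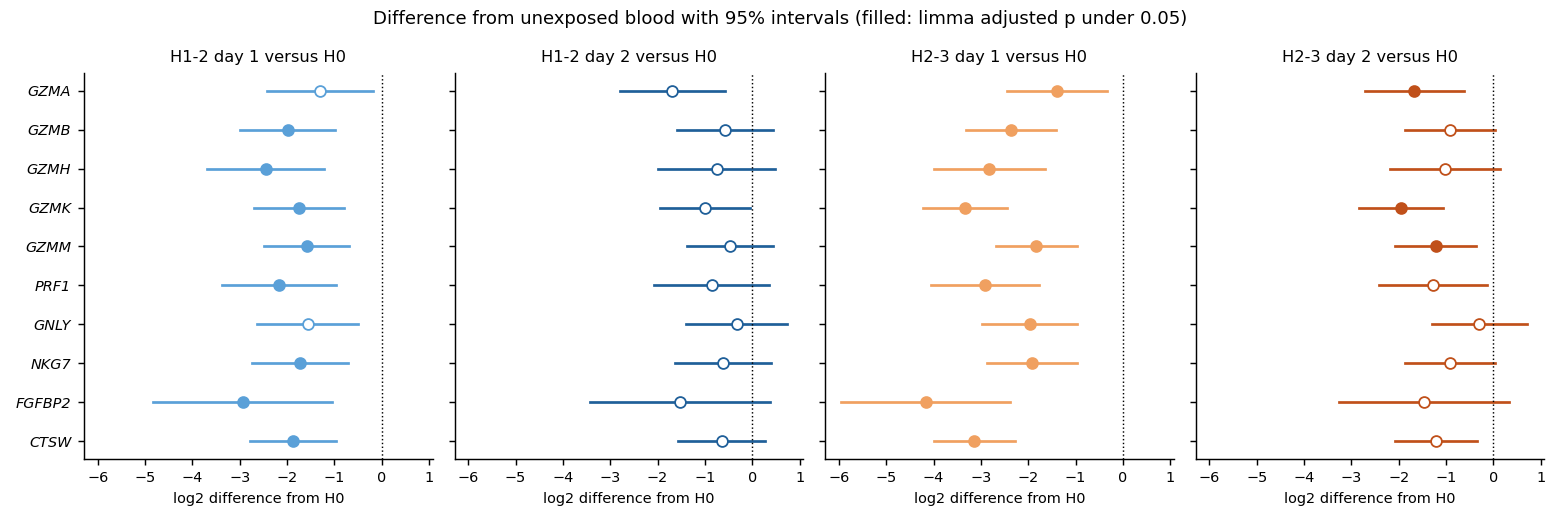
Difference from H0 on the log2 scale (horizontal axis) for each gene (rows) in the 4 irradiated groups (panels), with 95% intervals of the limma fit as bars and filled points for an adjusted p under 0.05. All points lie left of 0, with 8 filled in H1-2 on day 1, 0 on day 2, 10 in H2-3 on day 1 and 3 on day 2.

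On day 2 the means of all but GZMA lay nearer to H0 than on day 1, in both categories. In H2-3, 3 of the 10 genes were still lower than H0, against 14.8% of all tested genes in either direction and 4.48% as lower. GZMK, at -0.28, 0.38, 1.04, 0.39 and 1.35, was the only one with every array below H0 (2.96% of all genes), with a difference of -1.95 (SE 0.43, adjusted p = 0.0094), or 3.87-fold. GZMM, between 2.04 and 2.83, differed by -1.22 (SE 0.41, adjusted p = 0.0497). GZMA differed by -1.67 (SE 0.51, adjusted p = 0.033) with 1 of 5 arrays well above background, or 1.44-fold with the floor. Leaving GZMA out, which met the filter mostly through H0, 2 of 9 genes were called. CTSW, between -1.73 and -0.63, just missed the threshold at -1.22 (SE 0.41, adjusted p = 0.051).

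The limma count in H2-3 on day 2 was 1 without H0 baboon 1 or 2 (5.07% and 11.6% of all genes called), 1 without day 2 baboon 1, 4 or 5 (20.8%, 3.92% and 6.97%), and 5 without H0 baboon 3 (18.2%). GZMK passed in each of these, with differences between -2.15 and -1.74. With slide as a random block 2 of the 10 genes passed, against 10.3% of all genes. The other 7 genes had negative differences between -1.47 (FGFBP2, SE 0.86) and -0.30 (GNLY, 95% interval from -1.30 to 0.71).

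In H1-2 on day 2, 0 of the 10 genes passed the limma test against H0, and 0% of all tested genes did. At an unadjusted p under 0.05, GZMA and GZMK were below H0 (2 of 10), as 10.5% of all genes differed at that level. All 10 differences were negative, between -1.69 (GZMA) and -0.32 (GNLY), with adjusted p from 0.347 to 0.827. GZMB, for example, was 8.72, 8.03, 7.28 and 7.37, inside the H0 range, and its difference of -0.58 had a 95% interval from -1.59 to 0.43. GZMA was not well above background on any of these arrays and was 1.41-fold lower than H0 with the floor, which is not a strict bound.

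Ordered by mean, GZMB, GZMH, GZMM, PRF1, NKG7 and CTSW (6 of 10) stood in the same order, H0 highest, then H1-2 on day 2, H2-3 on day 2, H1-2 on day 1 and H2-3 on day 1. PRF1 means in that order were 4.31 ± 0.95 (SD, n = 5), 3.45 ± 0.57 (n = 4), 3.04 ± 1.06 (n = 5), 2.14 ± 0.57 (n = 4) and 1.40 ± 1.20 (n = 5). The steps from H0 to H1-2 on day 2 and between the categories on either day did not pass the test, and H2-3 on day 2 was not tested against H1-2 on day 1. GNLY and FGFBP2 differed from this order only in that H2-3 stood above H1-2 on day 2, by 0.02 and 0.06, far less than their spread. GZMK was lower in H2-3 on day 2, at 0.58 ± 0.63 (SD, n = 5), than in H1-2 on day 1, at 0.78 ± 0.48 (n = 4), a gap within the spread. GZMA, mostly at background, was also lower in H2-3 on day 2 than in H1-2 on day 1.

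Most levels were higher on day 2 when followed in each animal. Leaving out GZMA, whose signal was mostly at background, 45 of 45 pairs of gene and baboon were higher on day 2 in H2-3, and 33 of 36 in H1-2. The 9 genes of an animal are not independent of one another, and the same count over all genes was not made. GZMA was higher on day 2 in 2 of 5 H2-3 baboons and 1 of 4 H1-2 baboons. With the floor in place of day 1 arrays at background, which 7 of the H2-3 pairs had (FGFBP2 and CTSW), 44 of 45 were higher, all but FGFBP2 in baboon 1 (-0.26). The 3 exceptions in H1-2 were PRF1 and CTSW in H1-2 baboon 3 and NKG7 in baboon 4, with changes from -0.39 to -0.14. The median change over the 9 genes was 1.91, 1.81, 0.31 and 0.98 in H1-2 baboons 1 to 4 and 0.97, 0.75, 1.56, 1.93 and 2.25 in H2-3 baboons 1 to 5. H1-2 baboon 3 thus changed least.

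**Figure D3:**
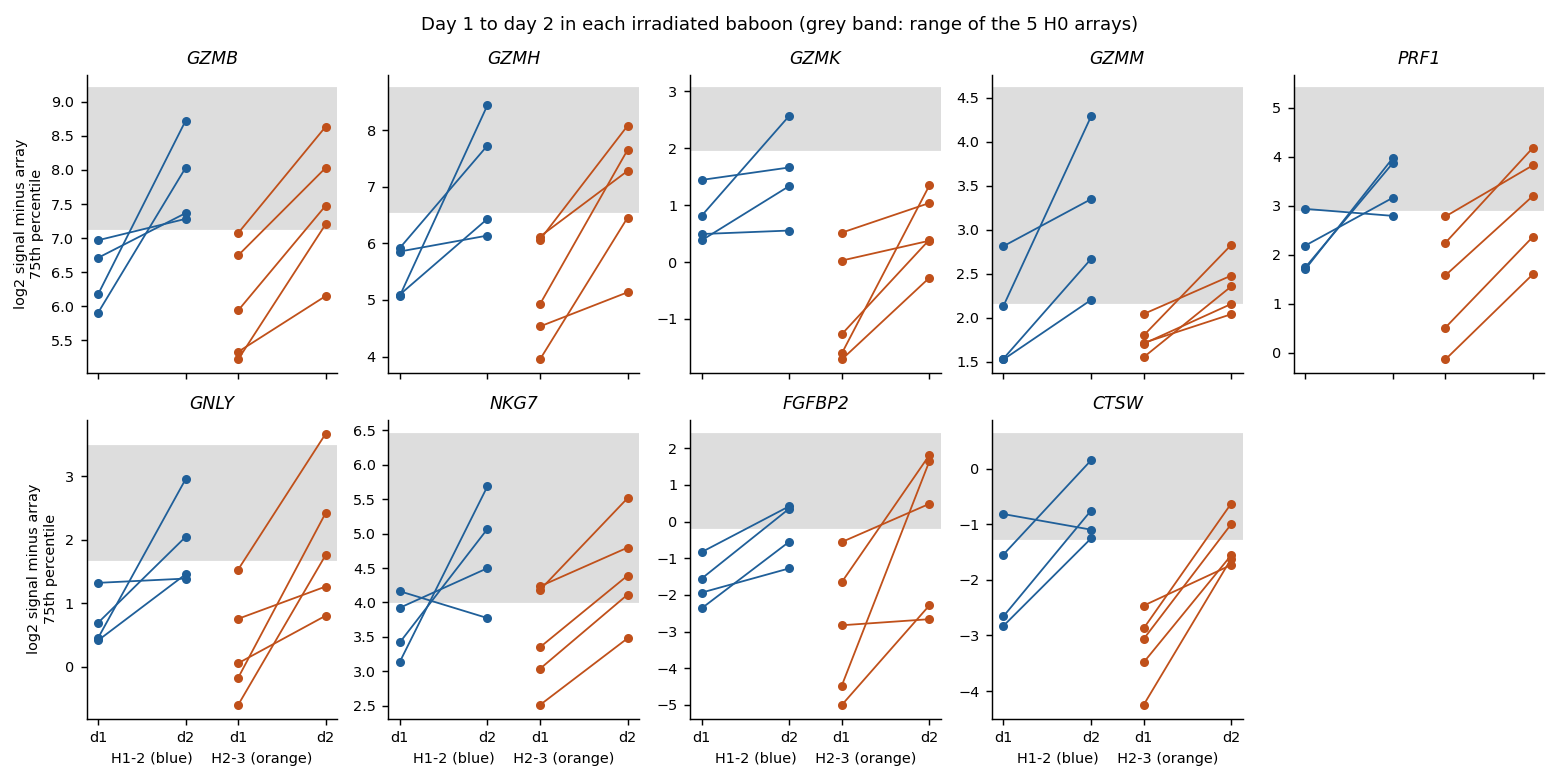
Log2 level of 9 genes (vertical axes, a scale of its own for each) on days 1 and 2 (horizontal axis), with a line for each baboon, H1-2 in blue and H2-3 in orange, and the range of the 5 H0 arrays as a grey band; arrays at background are drawn like the rest. All 45 orange lines rise, and 33 of the 36 blue lines do.

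The test without regard to the animal called 1 of the 10 genes higher on day 2 in H2-3, against 2.97% of all genes in either direction and 1.74% as higher. That gene was CTSW, with all 5 day 2 arrays (between -1.73 and -0.63) above all 5 day 1 arrays (2.72% of all genes), a difference of 1.92 (SE 0.41, adjusted p = 0.022). Only 1 of its 5 day 1 arrays was well above background, and the fitted 3.78-fold was 2.77-fold with the floor. Since the same baboons were sampled on both days, the replicate block was also fitted. With the baboon as a random block 7 of the 10 genes passed in H2-3 (16.1% of all genes, 6.88% as higher): GZMB, GZMH, GZMK, PRF1, GNLY, FGFBP2 and CTSW, with adjusted p from 0.0040 to 0.023. With the baboon as a fixed block 5 passed (2.85% of all genes, 2.24% as higher): GZMB, GZMH, PRF1, NKG7 and CTSW, with adjusted p from 0.029 to 0.041.

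The largest day change in H2-3 was that of FGFBP2, at 2.70 (SE 0.86, adjusted p = 0.069 without the block and 0.021 with the random block), and it was uneven. With 2 of 5 day 1 arrays well above background, the fitted 6.50-fold was 3.91-fold with the floor. On day 2 FGFBP2 stood at -2.66, 0.48, 1.81, -2.29 and 1.64, so baboons 1 and 4 stayed below H0 while baboons 2, 3 and 5 lay within its range. H2-3 baboon 1 was the lowest day 2 array of its group for 7 of the 10 genes and baboon 3 the highest for 7. The limma count without the block was 7 without day 2 baboon 1, where 17.7% of all genes passed, and 2 without day 1 baboon 2 or 3 (2.31% and 1.37%). It was 0 without day 1 baboon 4 (0.393%) or day 2 baboon 3 or 5 (0.426% and 0.104%).

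In H1-2, 0 of the 10 genes passed between the days by limma, without the block and with either replicate block, and 0% of all genes passed without it or with the fixed block, against 4.27% with the random block. At an unadjusted p under 0.05, 7 genes were higher on day 2, as 23.5% of all genes differed at that level. GZMB, GZMH and GNLY had every day 2 array above every day 1 array (4.92% of all genes). GZMH had the largest change, 1.70 (SE 0.63, adjusted p = 0.155 without the block, 0.060 with the random block). The day change did not pass as different between the categories for any of the 10 genes (interaction, adjusted p = 0.9999, 0 at an unadjusted p under 0.05, where 1.99% of all genes were), with differences from -0.51 to 1.29 and SE from 0.62 to 1.29.

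The direct comparison of the categories asks whether these transcripts mark the later severity. On day 1 all 10 genes had lower means in H2-3 than in H1-2, but 0 of 10 passed the limma test, and 0% of all tested genes did. GZMK (difference -1.59, 95% interval from -2.54 to -0.64, adjusted p = 0.325) and CTSW (-1.27, interval from -2.18 to -0.35, adjusted p = 0.492) had an unadjusted p under 0.05, as 5.79% of all genes did. FGFBP2 differed by -1.23 (interval from -3.12 to 0.67) and GZMB by -0.38 (interval from -1.39 to 0.63). With the floor for H2-3 arrays at background, the fitted 2.34-fold of FGFBP2 was 1.41-fold and the 2.41-fold of CTSW 1.76-fold. None of the 10 genes had all arrays of H2-3 below all of H1-2, as 1.07% of all genes did.

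The 2 slides that held both categories on day 1 went apart. On slide 4, with 2 baboons of each category, 6 of the 10 differences were positive, with a median of 0.24, and on slide 5, with 2 of each, all 10 were negative, with a median of -1.15. GZMK differed by -0.17 and -2.57 on them. On day 2 the differences between the categories lay between -0.96 (GZMK, unadjusted p = 0.048, adjusted p = 0.508) and 0.06 (FGFBP2), 7 of 10 were negative, and 0 of 10 passed, as for all genes, of which 9.76% had an unadjusted p under 0.05. Within slides 6 and 7 their medians were -0.64 and -0.09.

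Whether the genes fell by the same amount was examined with ratios within an array, which do not depend on the array's scaling. The 4 pairs were compared with H0 on day 1 in both categories, 8 exact permutation tests over arrays in all, two-sided, and none passed after adjustment over the 8. In H2-3 the log2 ratio of GZMH to GZMB was -0.94 ± 0.24 (SD, n = 5) against -0.49 ± 0.22 (n = 5) in H0, a difference of -0.45 (exact p = 0.024, adjusted p = 0.127). The ratio of GZMK to GZMA was lower by more, a difference of -1.95 (exact p = 0.032, adjusted p = 0.127), but GZMA was not well above background on any day 1 array of either category, so this ratio is set in part by signal at background. The ratio of PRF1 to GZMB differed by -0.55 and that of GNLY to GZMB by 0.39 (adjusted p = 0.212 and 0.635). In H1-2, with 4 arrays against 5, the adjusted p lay between 0.381 and 0.626.

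Across the 23 arrays the genes followed one another to different degrees, as a description of arrays that share the group differences. The correlation of a gene with the mean of the other members was 0.96 for GZMB, 0.95 for PRF1, 0.92 for GZMH and 0.90 for NKG7. It was 0.89 for CTSW, 0.84 for GZMK, 0.83 for FGFBP2 and 0.74 for GZMM. GNLY, at 0.56, and GZMA, at 0.34, followed the others least. Among irradiated baboons GNLY was highest in H2-3 baboon 4 on both days (1.53 and 3.67), the animal with the lowest GZMB, GZMH and FGFBP2 of its group on day 1.

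Among 14771 other genes with a symbol, those most like the mean of the standardised members over the 23 arrays were PCDH1 (Pearson r 0.97), AP1S3 (0.97), CD3G (0.96), LLGL2 (0.96) and TMEM121 (0.96). CD3G, part of the T cell receptor complex, had group means of 5.19 in H0, 3.08 and 4.41 in H1-2 on days 1 and 2, and 1.94 and 3.70 in H2-3. PCDH1, a protocadherin, had means of 4.41, 2.63, 3.57, 1.63 and 3.14 in the same order. The genes most opposed were GABARAP (-0.91), an autophagy protein, KRTAP19-2 (-0.91) and DACH1 (-0.90).

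The wider cytotoxic pathway moved in opposite directions at different steps. Counts in the gene lists are read beside all tested genes. Against H0 on day 1, 28.4% of these were called in H2-3, 13.5% as lower, and 8.59% in H1-2, 4.42% as lower. On day 2 the shares were 14.8% in H2-3, 4.48% as lower, and 0% in H1-2. Regulators that drive granzyme and perforin transcription were low on day 1: 5 of 8 fell and 1 rose in H2-3 (median -1.53), and 4 of 8 fell in H1-2 (median -1.11). TBX21 (T-bet) had a mean of 3.60 in H0 and 0.33 in H2-3 on day 1, a difference of -3.27 (SE 0.45, adjusted p = 7.7e-05), or 9.64-fold, and was 3.55-fold lower in H1-2 (adjusted p = 0.026). STAT4, which transmits interleukin-12 signals, was 6.10-fold lower in H2-3 (difference -2.61, SE 0.41, adjusted p = 0.00016) and 3.40-fold lower in H1-2 (adjusted p = 0.021). On day 2, 0 of the 8 regulators passed in either category, and TBX21 in H2-3 was at -1.28 (adjusted p = 0.058).

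Receptors for the cytokines that induce the effectors followed in H2-3, where 6 of 9 fell and 1 rose on day 1 (median -0.68). In H1-2, 1 was lower and 1 higher. The shares of all tested genes called in either direction were 28.4% in H2-3 and 8.59% in H1-2. IL2RB, the signalling chain shared by the interleukin-2 and interleukin-15 receptors, was 4.99-fold lower in H2-3 (difference -2.32, SE 0.38, adjusted p = 0.00023). IL2RA, the high-affinity chain, differed by -2.89 (SE 0.49, adjusted p = 0.00030) with 2 of 5 arrays well above background. In H1-2 the same genes differed by -1.09 and -1.43, with adjusted p = 0.085 and 0.082.

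Of the other effector routes, 7 of 11 death ligands, cytokines and chemokines could be tested. On day 1, 2 of the 7 fell and 1 rose in H2-3 (median -0.34), and 1 fell in H1-2 (median -0.46). Of all tested genes, 28.4% and 8.59% were called there in either direction, 13.5% and 4.42% as lower. FASLG, CCL5 and TNF were the only genes of the list called in H2-3 on day 1. FASLG, the ligand of the Fas death receptor, was 7.08-fold lower in H2-3 on day 1 (difference -2.82, SE 0.54, adjusted p = 0.00075, 4 of 5 arrays well above background) and 3.67-fold lower in H1-2 (adjusted p = 0.046). CCL5, a chemokine stored in cytotoxic granules, was 2.54-fold lower in H2-3 (adjusted p = 0.0021) and at -0.90 in H1-2 (adjusted p = 0.074). TNF, singled out after its values were seen because it alone in this list rose on day 1, was higher in H2-3 by 1.23 (SE 0.28, adjusted p = 0.0026). IFNG was well above background on 3 of 23 arrays, XCL1 on 2 and CSF2 on 1, and no probe carried the name XCL2.

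The machinery that packs and releases granules rose instead. In H2-3, 9 of 12 genes rose on day 1 (median 0.99) and 6 on day 2 (median 0.81), and none fell. Of all tested genes, 28.4% and 14.8% were called there in either direction. In H1-2, 3 of 12 rose on day 1 (median 0.79), against 8.59% of all genes in either direction. CTSC, the protease that activates granzyme precursors, had a mean of 0.50 in H0 and 2.05 in H2-3 on day 1, a difference of 1.55 (SE 0.21, adjusted p = 7.4e-05), and of 1.00 in H1-2 (adjusted p = 0.016). STXBP2, a partner of the fusion protein syntaxin 11, rose by 1.57 (SE 0.27, adjusted p = 0.00032) in H2-3 and by 1.06 (adjusted p = 0.029) in H1-2. These genes are also expressed in neutrophils and monocytes, whose markers had medians of 1.94 and 1.69 in H2-3 on day 1. The part of these cells in the rise of the list was not tested.

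Inhibitors and substrates of granzymes showed no common direction on day 1. Of 3 inhibitors, 1 fell and 1 rose in H2-3 on day 1 (median -0.59), and SERPINB9 was not called. On day 2 in H2-3, 1 of the 3 was lower (median -0.79), against 4.48% of all tested genes as lower. SERPINB1, an inhibitor abundant in neutrophils, rose by 1.23 (SE 0.42, adjusted p = 0.031) in H2-3 on day 1, while SERPINB6 fell by 0.59 (SE 0.22, adjusted p = 0.048). Of 13 substrates and members of the SET complex, a target of granzyme A, 4 fell and 3 rose in H2-3 on day 1 (median 0.16). There 28.4% of all tested genes were called in either direction and 13.5% as lower. PARP1, a DNA repair enzyme, was 4.71-fold lower (difference -2.24, SE 0.32, adjusted p = 0.00010) and BID, the granzyme B substrate that engages mitochondria, 2.21-fold higher (difference 1.14, SE 0.24, adjusted p = 0.0014). On day 2 in H2-3 PARP1 was still lower (-1.30, adjusted p = 0.015) and BID still higher (1.20, adjusted p = 0.0081).

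Markers of the cells that carry these transcripts moved with them. Of 14 tested NK and cytotoxic markers, 10 fell in H2-3 and 5 in H1-2 on day 1 (medians -2.43 and -1.70). Of 8 T cell markers 7 and 4 fell (medians -2.39 and -1.54). Among all tested genes 13.5% and 4.42% were called as lower, and the median difference over all of them was 0.14 and 0.09. The mean log2 level of the NK list was 0.64 to 2.13 in H0, 0.02 to 0.56 in H1-2 and -0.70 to 0.64 in H2-3 on day 1, and -0.24 to 1.57 in H2-3 on day 2. The log2 of the summed NK marker signal ranged from 6.67 to 8.39 in H0, 5.85 to 7.21 in H1-2 on day 1 and 6.34 to 6.82 in H2-3 on day 1. Summed T cell marker signal ranged from 7.43 to 8.48, 5.72 to 6.94 and 4.15 to 6.61 in the same order. Neutrophil markers rose, 5 of 6 in both categories on day 1 (medians 1.94 in H2-3 and 1.51 in H1-2). So did monocyte markers, 6 of 6 in H2-3 and 3 of 6 in H1-2. In either direction, 28.4% of all genes were called in H2-3 and 8.59% in H1-2.

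The summed neutrophil signal was 8.23 to 10.3 in H0, 10.4 to 10.9 in H1-2 and 10.5 to 11.1 in H2-3 on day 1, and the summed monocyte signal 9.10 to 10.1, 10.3 to 10.8 and 10.8 to 11.2. Of 6 B cell markers, 5 fell in H2-3 on day 1 (median -3.47) and 6 were lower on day 2 (median -2.59). As lower, 13.5% and 4.48% of all genes were called there. In H1-2, 0 of the 6 were called on either day (median -0.70 on day 1), against 8.59% and 0% of all genes in either direction. For plasmacytoid dendritic cells, the other source of GZMB, 3 of 5 markers could be tested, with 1 lower and 1 higher in H2-3 on day 1, and the defining CLEC4C and IL3RA were well above background on 0 arrays. S1PR5 was above background on 0 arrays too, SH2D1B and MS4A1 on 1 each, and no probe carried the names FCGR3B or LYZ. Basophil, erythroid and platelet markers were called in 0 cases against H0 on day 1 (4 genes tested in each list). Their medians were -1.03, 0.11 and 0.56 in H2-3 and -1.32, 0.16 and 0.49 in H1-2, so the basophil markers were lower without passing the test. The part of these cell types in the changes of the 10 genes was not tested.

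**Figure D4:**
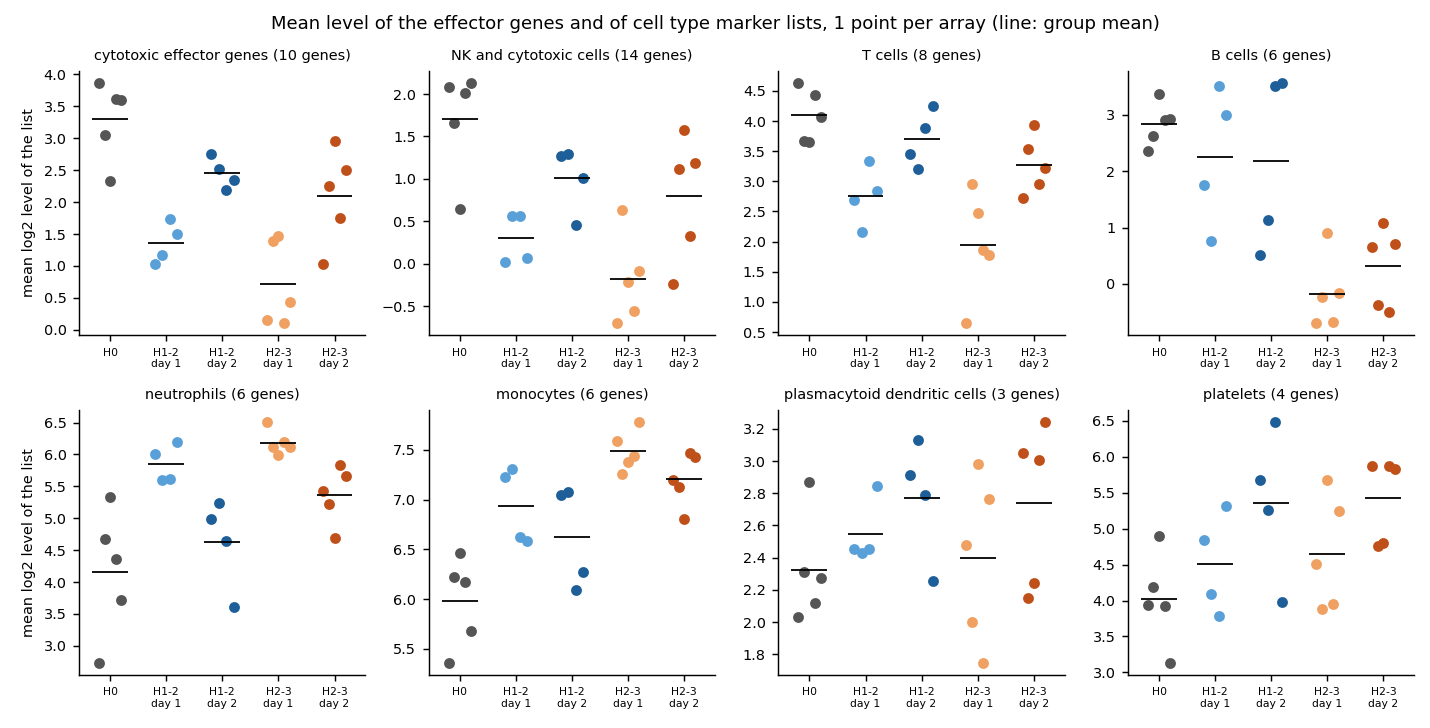
Mean log2 level over the tested genes of a list (vertical axes, a scale of its own for each list) on each array in the 5 groups (horizontal axis), with a line at the group mean. The cytotoxic effector genes (10 genes), NK and cytotoxic markers (14) and T cell markers (8) are lowest in H2-3 on day 1 and nearer to H0 on day 2, B cell markers (6) stay low in H2-3 on day 2, and neutrophil (6) and monocyte (6) markers are highest in H2-3 on day 1.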

How the data were processed

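Whole-blood RNA of 23 samples (2.5 ml of blood, 100 ng of RNA, Cy3) was hybridised to 1-colour arrays of 62976 spots. Agilent Feature Extraction 10.7.3.1 read the spots, per the submitters' processing notes and the file headers, which name build hg19. The deposited scanner files hold a background-subtracted spot intensity that is not normalised between arrays. The deposited log2 value table (39726 probes, 39637 matched) tracked the scanner intensity of its own array in each column (correlation 0.9982 to 0.9999, positive slope, every column median 4.70). Its centring is unknown, and it served as an alternative.

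Here log2 of the processed intensity was averaged over the spots of a probe, and the array's 75th percentile was subtracted. The 27215 probes well above background on at least 4 arrays were kept, and the probe with the highest mean stood for its gene (21130 genes). The number of arrays limits the precision. Comparisons used limma 3.58.1 under R 4.3.3 (data.table version 1.17.8, statmod 1.5.0), in a single fit of 5 group means without a block, two-sided, with Benjamini-Hochberg adjustment over all genes at 0.05. The fit was tested on simulated data.

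The titles give each irradiated baboon the same number on both days, which pairs the days. Deviations from the group mean of the same baboon correlated at 0.06 to 0.39 in H1-2 and 0.05 to 0.44 in H2-3, and 4 of 5 H2-3 but 0 of 4 H1-2 baboons matched best with themselves. The 95% intervals are those of the limma fit. Named genes are the 10 members, the 2 of each pathway list whose F-test p over the 5 groups was smallest, and the 5 genes most and 3 least correlated with the members. The members, gene lists and tests were chosen with earlier results of these data known. Alternatives covered scaling, background correction, the deposited table, the filter on dim probes, the probe for a gene, slide, scan day and baboon as blocks, array weights, the groups in the fit and leaving out each array. Dose was not analysed here.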

Additional observations from a re-analysis of the deposited data

How the results depend on the processing

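Each difference from H0 of the 10 genes stayed negative under all alternatives tried, while sizes and counts of calls moved. Apart from leaving out single arrays, CTSW in H2-3 on day 1 ranged from -4.29 to -1.15 and FGFBP2 from -5.23 to -1.90. In H1-2 on day 1 CTSW ranged from -3.28 to -0.85. In H1-2 on day 1, where 8 of the 10 genes were called, 0 were with slide or with scan day as a block and 4 with only the groups compared in the fit, and leaving out each array in turn gave 0 to 9. In H2-3 on day 1 the count of 10 became 4 with slide as a block, and 9 to 10 without single arrays. In H2-3 on day 2 the count of 3 became 1 with no filter on dim probes (5.73% of all genes called), with only the groups compared (7.58%) or with array weights (12.2%). It was 1 to 5 without single arrays. Between days in H2-3 the count of 1 became 0 with normexp and quantile normalisation, 6 with array weights, 7 with the random and 5 with the fixed replicate block, and 0 to 7 without single arrays. Between days in H1-2 the count was 3 with array weights, where 11.5% of all genes were called, and otherwise 0. The replicate block changed no other count of the 10 genes by over 1.5 times. Over the pathway lists, 12 genes were called in H1-2 on day 1 and 10 in H2-3 on day 2, against 8.59% and 14.8% of all genes. With no filter on dim probes these counts were 5 and 6, and the share of all genes fell too, to 3.52% and 5.73%. With normexp the GZMK to GZMA ratio differed from H0 by -1.37 in H1-2 and -2.39 in H2-3 (adjusted p = 0.032, exact permutation), against GZMA signals not well above background on any day 1 array, and the PRF1 to GZMB ratio in H1-2 by 0.0057 instead of -0.18. The GNLY to GZMB ratio in H2-3 ranged from -0.12 (without H2-3 baboon 4) to 0.63 without single arrays, instead of 0.39. The causes were not tested. Over all genes, those called in H1-2 on day 1 numbered 1816 in the fit as reported, 9 with slide and 4 with scan day as a block and 211 with only the groups compared; those in H2-3 numbered 6007 on day 1 and 1112 with slide as a block, and 3123 on day 2 and 1602 with only the groups compared. Between days in H2-3, 628 genes were called, 324 when the percentile was taken from always-detected probes, 170 with normexp, 225 with slide as a random block, 167 with only the groups compared, 3406 with the random replicate block and 4316 with array weights. GZMA, and FGFBP2 and CTSW in H2-3 on day 1, were limited by signal near background: with normexp the GZMA difference in H2-3 on day 1 was -0.18 and was not called.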
